A study of Mus musculus with 8 samples.

Results

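Dense peak clusters are stretches of the macrophage genome where open chromatin sites crowd together. A peak was placed in one when at least 10 other peaks on its chromosome had midpoints within 25000 bp of its own midpoint, and kept peaks with midpoints up to 25000 bp apart were merged into a cluster. The rule used peak positions alone and took no measured level as input. The positions themselves came from peak calling on reads, in a list shared by all libraries. A site open mainly in some groups could thus be listed and count as a neighbour. Whether this affected the comparisons of clusters with other peaks was not tested. The rule kept 1297 of 74207 peaks, in 279 clusters. The remaining 72910 peaks were merged at the same distance but also split wherever a clustered peak lay between them. They formed 19276 runs, which serve as the comparison. Clusters were not split by remaining peaks, and remaining peaks within or beside a cluster fell into runs.

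The assay was ATAC-seq, where the transposase Tn5 inserts adapters into DNA that nucleosomes leave uncovered. Macrophages were grown from the bone marrow of C57Bl/6 mice with the WT genotype, in CMG medium with FBS, and each of 2 mice gave 1 library to each of 4 groups (n = 2 mice per group). In the fenoterol + LPS group, cells had 1 µM fenoterol for 15 min and then 100 ng/mL LPS for 1 h. The fenoterol group had fenoterol alone for 15 min, the LPS group had LPS alone for 1 h, and the unstimulated group had neither. Time since the agonist therefore differed between the groups that received fenoterol, and an effect of LPS cannot be told apart there from that of the longer time.

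Clusters of open sites in macrophages are often enhancers, stretches of DNA that lineage factors keep accessible and from which nearby genes are switched on. LPS, a component of the bacterial outer membrane, signals through a Toll-like receptor and brings NF-κB and other inducible factors to such sites within the first hour. Fenoterol activates the β2 adrenergic receptor, which raises cyclic AMP and activates protein kinase A. No histone mark or transcript is in this table, so whether a cluster acts as an enhancer was not measured. Clusters are named here by chromosome and position on build mm9.

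Depth was lowest in the mouse 1 unstimulated library, with 1426873 reads in peaks, and ran from 3164446 to 4040292 elsewhere. The median clustered peak held 14 reads in that library, with an exact 95% Poisson interval of 7.65 to 23.5 reads, and 32 to 45 reads in the others. These intervals cover counting error only. At 43 clustered peaks its value was that of 1 read, which the table also gives to peaks without reads, against 0 to 10 such peaks in any other library. Summing over a cluster raised the median to 67 reads there and to between 145 and 202 in the others. Levels below are RPKM (reads per kilobase of peak, relative to all reads in peaks) after scaling between libraries, and the level of a cluster is the mean over the bases of its peaks. In such bulk libraries, a site open in fewer cells and a site less open in each cell cannot be told apart.

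Most clusters were small. A single peak made up 57 of them, 109 held 2 to 4 peaks, 81 held 5 to 9, and 32 held 10 or more. A cluster could hold fewer than 10 peaks because the neighbours that qualified its members did not all qualify themselves. The 113 clusters of 5 or more peaks had a median span of 25333 bp, and the longest cluster spanned 103987 bp. Neighbouring midpoints within a cluster lay a median of 2823 bp apart. Clusters were found on 20 chromosomes, with 25 each on chromosome 1 and chromosome 2, 3 on chromosome 16, 2 on X and 0 on Y. Among the chromosomes that held clusters, the share of peaks that were clustered was highest on chromosome 8, at 2.92%, and lowest on chromosome 16, at 0.225%. At the edge of the rule, the 726 peaks with exactly 10 neighbours had a median level of 25.6 RPKM and the 1372 peaks with 9 neighbours had 24.3 RPKM.

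Clustered peaks were more accessible than the rest but not wider. Their median level over all libraries was 26.9 RPKM, against 16.8 RPKM for the remaining peaks. Median widths were 406 bp and 404 bp. Over clusters the median level was 28.5 RPKM, with a range of 8.25 to 84.7 RPKM. The most accessible cluster was a single peak on chromosome 11 at 90086113 to 90087108, with 85.9 and 87.4 RPKM in fenoterol + LPS cells, 84.8 and 71.7 RPKM in fenoterol cells, 89.3 and 88.0 RPKM in LPS cells and 95.2 and 75.4 RPKM in unstimulated cells. One unstimulated library was the highest of all, and the other lay above only 1 fenoterol library.

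Clustered peaks held a larger share of all peak signal in every library that had received LPS. That share was 2.13% and 2.16% in the fenoterol + LPS libraries of mouse 1 and mouse 2, and 1.92% and 1.98% in the fenoterol libraries. It was 2.12% and 2.11% in the LPS libraries, and 1.92% and 1.99% in the unstimulated libraries. The 4 libraries with LPS all lay above the 4 libraries without it. They did so too with at least 7 neighbours required, but not with 15 (4 peaks) or with 10 within 15000 bp (24 peaks). With 2 mice per group, no permutation test of 1 pair of groups could pass 0.05. For the 4 libraries against 4 no p is given either, since the clustered peaks were chosen with earlier results known. Sites open mainly with LPS could also add to the neighbours that the rule counts. Whether this raised the share in the libraries with LPS was not tested.

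**Figure D1:**
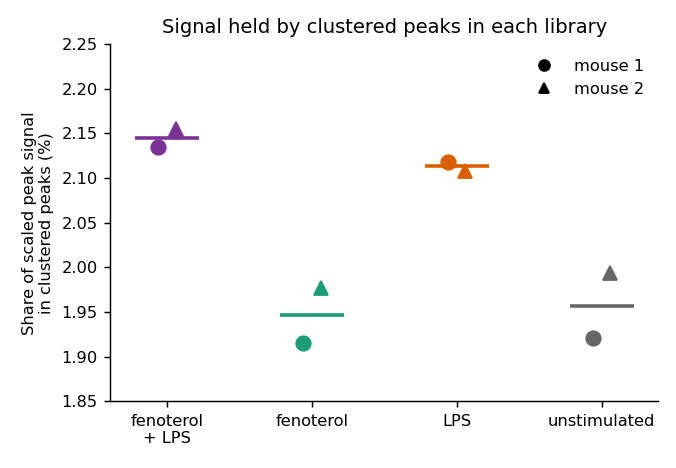
Share of the scaled signal of all peaks that fell in clustered peaks (vertical axis, percent, not starting at 0) for each library, by group; circles are mouse 1, triangles mouse 2 and bars the group mean. The libraries with LPS lie at 2.11% to 2.16% and those without it at 1.92% to 1.99%.

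LPS raised more clustered peaks than it lowered, as it did over all peaks tested, where 4363 rose and 2363 fell. After 1 h of LPS alone, 195 of the 1266 clustered peaks that passed the filter on low levels rose against unstimulated cells and 99 fell, by limma with Benjamini-Hochberg adjustment over all peaks tested. The risen peaks were 15.4% of the clustered peaks tested, beside a background of 6.53% of all 66786 peaks tested. The fallen peaks were 7.82%, beside a background of 3.54%. The median log2 change of the clustered peaks was -0.02, beside -0.03 over all peaks tested, so changes ran in both directions around a centre near 0. Without the LPS library of mouse 2 the calls came to 111 rises and 20 falls, and without that of mouse 1 to 124 and 53. In such fits the lone remaining library is taken to vary like those of the other groups.

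The share of peaks that changed went up with the number of neighbours. With LPS alone, 3.48% of peaks with no neighbour within 25000 bp rose, then 5.05% of those with 1 to 3 neighbours, 7.40% with 4 to 6, 11.2% with 7 to 9 and 15.4% of clustered peaks. Falls followed the same order, at 1.18%, 2.55%, 4.38%, 6.44% and 7.82%. Level went up alongside, with a median of 14.2 RPKM in peaks without a neighbour, 23.7 RPKM with 7 to 9 neighbours and 27.5 RPKM in the clustered peaks tested. All peaks tested were also ordered by level and split into 4 classes of equal size, and the shares in each class were counted. In the lowest class 10.9% of clustered peaks and 5.08% of remaining peaks rose, and in the highest class 17.3% and 5.72% did. The corresponding falls were 2.17% and 0.741% in the lowest class and 10.1% and 6.14% in the highest. Peaks that lie close together share a locus, so these shares describe the table and carry no test. Peaks open mainly with LPS could themselves raise the number of neighbours at a locus, and the part of this in the shares was not tested.

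**Figure D2:**
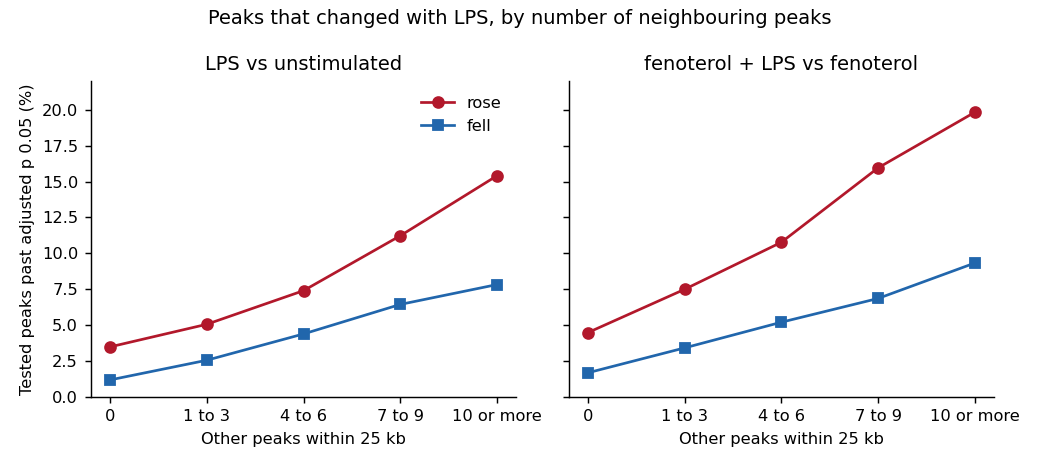
Percent of tested peaks that rose (circles) or fell (squares) past an adjusted p of 0.05 (vertical axis) by the number of other peaks within 25000 bp (horizontal axis), for LPS against unstimulated cells on the left and fenoterol + LPS against fenoterol on the right. Both shares go up with the number of neighbours, to 15.4% and 7.82% with LPS alone in clustered peaks.

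Taken as whole units, 44 of the 275 clusters tested rose with LPS alone and 27 fell. Rises made up 16% of the clusters, beside a background of 5.72% of all 17599 regions tested (clusters and runs of remaining peaks together), and falls 9.82%, beside 4.09%. Larger clusters were called more often, and so were larger runs of remaining peaks. Of clusters with 5 or more peaks, 23 rose and 15 fell out of 113, which is 33.6%. Of the runs of remaining peaks with 5 or more peaks, 353 rose and 364 fell out of 4955, which is 14.5%. Runs of 2 to 4 peaks came to 8.90% and runs of 1 peak to 6.12%. Among single-peak clusters 7 rose and 1 fell out of 54. In 67 clusters all 4 libraries with LPS lay above all 4 without it (24.4%, background 12.4%), and in 50 all lay below (18.2%, background 12.8%). With the mouse as a block, 56 clusters rose and 45 fell. Leaving out the LPS library of mouse 1 left 26 rises and 5 falls, leaving out that of mouse 2 left 23 and 1, and a fit without the mouse 2 unstimulated library gave 51 and 59, so the number of falls in particular rested on single libraries.

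The LPS change was also measured in fenoterol-treated cells, with no library in common. Against fenoterol alone, fenoterol + LPS cells had 251 risen clustered peaks (19.8%, background 9.43%) and 118 fallen ones (9.32%, background 4.32%). Of the clusters, 66 rose (24.0%, background 8.1%) and 23 fell (8.36%, background 3.52%). Without the fenoterol + LPS library of mouse 1 or of mouse 2, or the mouse 1 fenoterol library, the clusters called came to 50, 46 and 46. Of the 44 clusters that rose with LPS alone, 41 rose here too, which is 93.2% of that list and 62.1% of the 66. Among all regions that rose with LPS alone, 73.5% rose here too. All 44 clusters were higher in both mice, beside 96.4% of all such risen regions and 34% of all regions tested. Of the 27 that fell with LPS alone, 12 fell here, which is 44.4% of that list and 52.2% of the 23. Among all regions that fell with LPS alone, 38.0% fell here. All 27 clusters were lower in both mice, beside 92.9% of all such fallen regions and 35.8% of all regions tested. No cluster was called in opposite directions. These comparisons share the estimate of spread but no library. Across the 275 clusters, the LPS change correlated between the mice at Pearson r = 0.69 without fenoterol and 0.84 with it. Between the LPS change without fenoterol in 1 mouse and that with fenoterol in the other, r was 0.68 and 0.76. These are descriptions across clusters that share libraries and scaling.

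**Figure D3:**
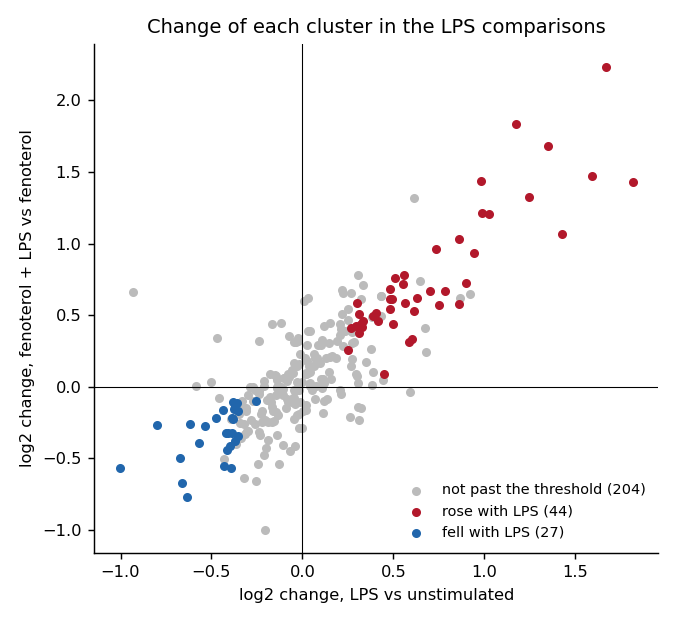
Log2 change of each of the 275 clusters tested with LPS against unstimulated cells (horizontal axis) and with fenoterol + LPS against fenoterol (vertical axis). Points mark the 44 clusters that rose with LPS alone, the 27 that fell and the 204 not past the threshold; all 71 called clusters have the same sign on both axes.

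The cluster with the clearest rise held 14 peaks on chromosome 17 at 35315487 to 35359527. Its level was 40.7 and 46.2 RPKM in fenoterol + LPS cells, 15.5 and 17.6 RPKM in fenoterol cells, 49 and 50.0 RPKM in LPS cells and 25 and 19.8 RPKM in unstimulated cells. Every library with LPS was above every library without it, and both fenoterol libraries lay below both unstimulated ones. With LPS alone it rose by 1.03 on the log2 scale (SE 0.09, limma adjusted p = 4.79e-06), and in fenoterol-treated cells by 1.21 (adjusted p = 7.87e-07). The call with LPS alone stood under all 20 other settings. Within the cluster the rise was local. The 6 peaks that rose with LPS alone lay between 1.4 kb before and 19.2 kb after the centre. None of the 6 peaks more than 4 kb before the centre rose, and all 6 had log2 changes at or below -0.01. The strongest of the cluster was the 946 bp peak at 35335631 to 35336577, with 57.0 and 68.8 RPKM in fenoterol + LPS cells, 4.67 and 10.9 RPKM in fenoterol cells, 82.8 and 85.9 RPKM in LPS cells and 19.1 and 10.5 RPKM in unstimulated cells. It rose by 2.27 on the log2 scale with LPS alone (SE 0.22, adjusted p = 3.32e-06). Its neighbour at 35338260 to 35339208 rose by 1.5 (SE 0.14, adjusted p = 2.68e-06). Farther out, the peak at 35323647 to 35323881 had a log2 change of -0.73 that did not pass (adjusted p = 0.0633).

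A cluster of 19 peaks on chromosome 4, at 144799214 to 144873792, rose over most of its right part and at its left end. Its level was 64.6 and 70.6 RPKM in fenoterol + LPS cells, 45.0 and 45.2 RPKM in fenoterol cells, 62.3 and 65.1 RPKM in LPS cells and 45.9 and 43.0 RPKM in unstimulated cells. The groups with and without LPS did not overlap, and the log2 change with LPS alone was 0.48 (SE 0.07, adjusted p = 0.000205), a call that stood under all 20 other settings. With LPS alone 11 of its peaks rose and none fell. The peak at its right end, 144873093 to 144873792, had 75.7 and 82.7 RPKM in fenoterol + LPS cells, 17.2 and 22.6 RPKM in fenoterol cells, 72.1 and 79.2 RPKM in LPS cells and 30.1 and 21.1 RPKM in unstimulated cells. It rose by 1.44 (SE 0.16, adjusted p = 1.02e-05). Between 3.6 and 32.0 kb before the centre lay 6 peaks, none of which passed the threshold with LPS alone. One of them, at 144832800 to 144833006, fell in fenoterol + LPS cells against fenoterol cells by 0.82 on the log2 scale (adjusted p = 0.000557), with 30.9 and 27.2 RPKM against 58.3 and 50.2 RPKM.

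On chromosome 14 a cluster of 14 peaks, at 103424953 to 103470458, held the largest rises of any clustered peaks. Its level was 69.3 and 76.3 RPKM in fenoterol + LPS cells, 45.7 and 46.5 RPKM in fenoterol cells, 73.4 and 76.0 RPKM in LPS cells and 58.3 and 46.4 RPKM in unstimulated cells. It rose by 0.49 with LPS alone (adjusted p = 0.00142, lost when mouse 2's LPS library or the mean trend was left out), and 8 of its peaks rose while none fell. The 211 bp peak at 103457007 to 103457218 had 59.1 and 101.1 RPKM in fenoterol + LPS cells, 2.99 and 13.5 RPKM in fenoterol cells, 81.0 and 95.7 RPKM in LPS cells and 10.7 and 5.73 RPKM in unstimulated cells. It rose by 2.94 (SE 0.30, adjusted p = 4.45e-06), although its unstimulated values rested on 3 and 5 reads. The adjacent peak at 103456180 to 103456905 rose by 2.53 (SE 0.24, adjusted p = 2.43e-06). At 103445994 to 103446425 a peak had 77.3 and 76.2 RPKM in fenoterol + LPS cells, 13.9 and 16.8 RPKM in fenoterol cells, 68.1 and 80.4 RPKM in LPS cells and 31.4 and 24.7 RPKM in unstimulated cells. That peak rose by 1.29 with LPS alone, and its log2 change with fenoterol alone was -0.72 (unadjusted p = 9.08e-05), which did not pass (adjusted p = 0.177).

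Some clusters held peaks that moved in opposite directions. The cluster with most peaks, 20 on chromosome 14 at 26278477 to 26337026, had 29.4 and 30.6 RPKM in fenoterol + LPS cells, 28.5 and 31.9 RPKM in fenoterol cells, 28.7 and 26.9 RPKM in LPS cells and 30.8 and 31.2 RPKM in unstimulated cells. Its log2 change with LPS alone was -0.14 (SE 0.08, adjusted p = 0.26), and the LPS libraries were the lowest in both mice except for fenoterol in mouse 1. Inside it 1 peak rose with LPS alone and 3 fell. The peak at 26315629 to 26316004 rose by 1.49 (adjusted p = 0.00491), with 26.5 and 37.4 RPKM in fenoterol + LPS cells, 5.05 and 4.14 RPKM in fenoterol cells, 24.3 and 28.4 RPKM in LPS cells and 12 and 3.23 RPKM in unstimulated cells. About 25 kb away the peak at 26290649 to 26290895 fell by 0.86 on the log2 scale (adjusted p = 0.0051), with 16.2 and 19.96 RPKM in LPS cells and 39.7 and 32.5 RPKM in unstimulated cells. The rise was lost without the LPS library of mouse 2 (adjusted p = 0.0857), and this fall without that of mouse 1 (adjusted p = 0.0738).

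The longest cluster, 16 peaks on chromosome 11 at 83373978 to 83477965, was mixed as well. Its level was 29.1 and 29.4 RPKM in fenoterol + LPS cells, 16.1 and 20.3 RPKM in fenoterol cells, 30.1 and 31.8 RPKM in LPS cells and 24.6 and 24.2 RPKM in unstimulated cells. The libraries with LPS were above those without, and fenoterol alone was below unstimulated cells in both mice. It rose by 0.30 with LPS alone (SE 0.09, adjusted p = 0.0394), a call lost in 8 of 20 other settings, among them without each LPS library and without each fenoterol + LPS library. In fenoterol-treated cells it rose by 0.59 (adjusted p = 0.000276). Of its 14 tested peaks, 4 rose and 2 fell with LPS alone. The peak at 83460529 to 83460975 had 17.7 and 18.3 RPKM in fenoterol + LPS cells, 0.708 and 1.16 RPKM in fenoterol cells, 28.7 and 36.1 RPKM in LPS cells and 5.05 and 4.88 RPKM in unstimulated cells, and it rose by 2.01 (adjusted p = 0.000378). The fenoterol value of mouse 1 there is that of 1 read. The peak at 83406427 to 83406742 fell by 1.24 on the log2 scale (adjusted p = 0.0105), with 6.33 and 6.06 RPKM in LPS cells and 23.9 and 16.9 RPKM in unstimulated cells. That call was lost in 3 of 19 other settings, those without either LPS library or without the mouse 1 unstimulated library.

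**Figure D4:**
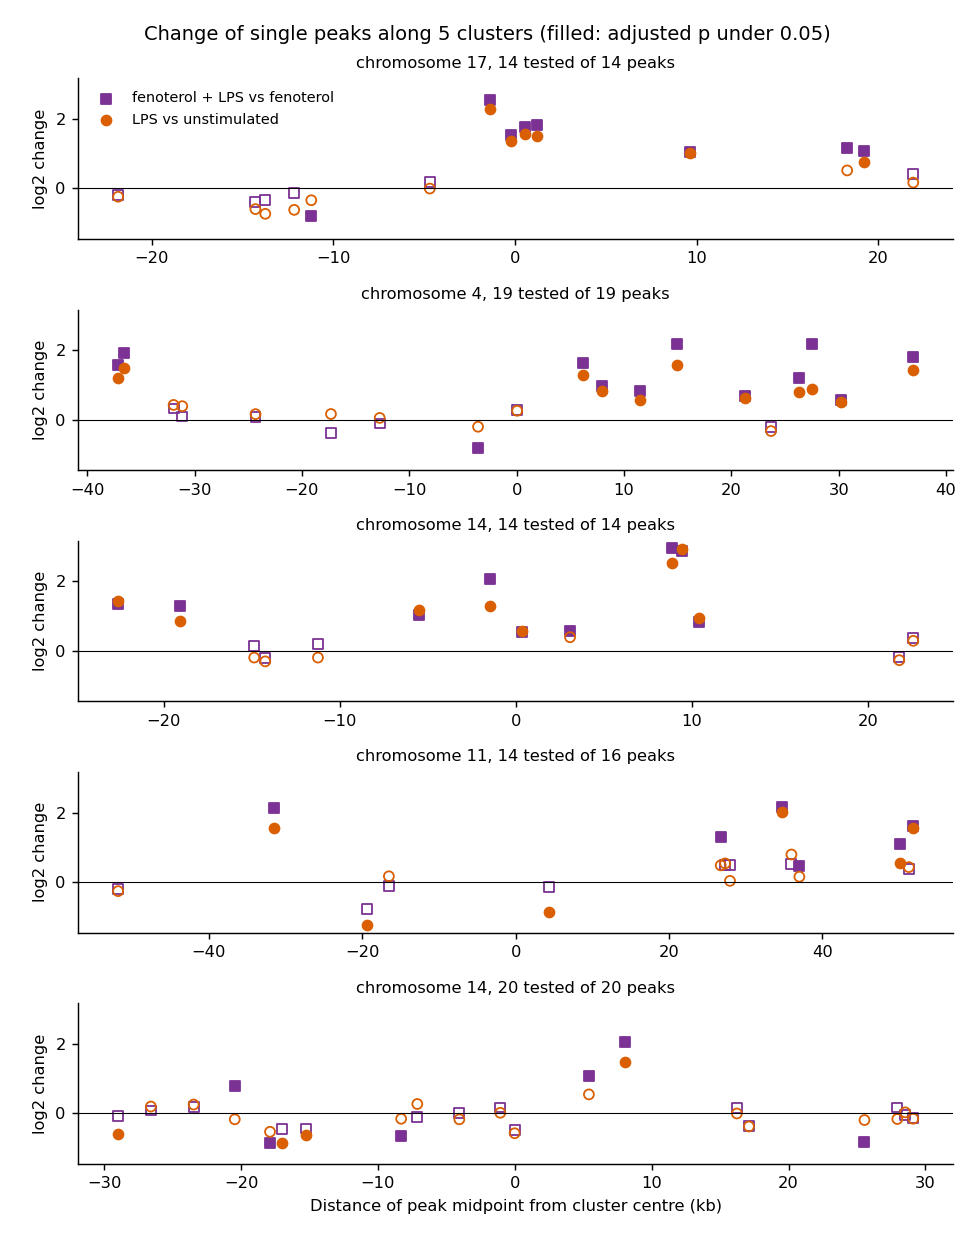
Log2 change of each tested peak (vertical axis) by the distance of its midpoint from the cluster centre in kb (horizontal axis) in 5 clusters; circles are LPS against unstimulated cells, squares fenoterol + LPS against fenoterol, and filled symbols passed an adjusted p of 0.05. In the chromosome 17 cluster the rises lie from the centre to the right, and in the 20-peak cluster on chromosome 14 peaks moved in both directions.

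Across all clusters, 132 held no called peak with LPS alone, 76 held only risen ones, 52 only fallen ones and 19 both. Of the 72 clusters with 2 or more called peaks, 40 had rises only, 13 had falls only and 19 had both. The 44 risen clusters held 277 peaks, of which 127 rose and 3 fell. The 27 fallen clusters held 135 peaks, of which 37 fell and 0 rose, and in 4 of them no single peak passed. A further 68 peaks rose outside the risen clusters, and 80 of the 204 clusters that did not pass held at least 1 called peak. These counts were made for clusters alone. Whether runs of remaining peaks of like size are mixed to the same degree was not examined.

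Neighbouring peaks resembled each other most when they were close. The LPS change at a peak in 1 mouse was set against the change at the next peak of the same cluster in the other mouse, so that no library was shared, and the mean of both directions is given. Over 928 neighbouring pairs in clusters r was 0.275, and over 46762 pairs in the runs of remaining peaks it was 0.151, where the median gap was 6833 bp rather than 2514 bp. Under 2 kb apart, r was 0.419 over 383 pairs in clusters and 0.249 over 9153 remaining pairs. From 2 to 5 kb it was 0.179 over 331 pairs and 0.163 over 8795 pairs. From 5 to 25 kb it was 0.142 over 214 pairs and 0.111 over 28814 pairs. The separate directions in clusters gave 0.132 and 0.226 from 2 to 5 kb, and 0.0392 and 0.244 from 5 to 25 kb. Both ranges hold the value of the remaining pairs. The same peak in the 2 mice gave 0.692 in clusters and 0.499 outside, and level differed between the sets as above. With peaks of at least 20 RPKM alone, neighbours gave 0.337 in clusters and 0.223 outside. There r in clusters was 0.184 from 2 to 5 kb and 0.237 from 5 to 25 kb, so it did not fall steadily with distance. Outside clusters it was 0.216 and 0.167 at these distances. From 5 to 25 kb the separate directions in clusters, 0.192 and 0.282, both lay above the outside value. These correlations are across peaks, which are not independent replicates.

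Several of the largest cluster rises were single peaks. The largest was on chromosome 6 at 115939076 to 115939595, with 29.9 and 38.4 RPKM in fenoterol + LPS cells, 9.74 and 10.5 RPKM in fenoterol cells, 34.6 and 44.1 RPKM in LPS cells and 7.24 and 9.32 RPKM in unstimulated cells. All libraries with LPS were above all without it, and the rise with LPS alone was 1.82 (SE 0.18, adjusted p = 1.74e-05). A single peak on chromosome 1 at 6466509 to 6467041 rose by 1.67 (adjusted p = 0.000141), and one on chromosome 11 at 22735169 to 22735585 by 1.59 (adjusted p = 0.000736). Among clusters of more than 1 peak, the largest rise was that of 3 peaks on chromosome 11 at 43175402 to 43183018. Their level was 31.7 and 37.5 RPKM in fenoterol + LPS cells, 14.5 and 14.1 RPKM in fenoterol cells, 36.6 and 43.0 RPKM in LPS cells and 13.7 and 10.9 RPKM in unstimulated cells. This cluster rose by 1.42 (SE 0.13, adjusted p = 4.79e-06), and 2 of its peaks passed on their own. On chromosome 18 at 50225632 to 50238144, all 3 peaks of a cluster rose, and the cluster rose by 1.35 (adjusted p = 5.58e-05). The remaining rises among the 8 largest were single peaks on chromosome 1 at 182242908 to 182243488, by 1.25 (lost without a mean trend), and on chromosome 2 at 52800676 to 52801084, by 1.17.

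Among the most accessible clusters, 1 of 3 rose. It held 3 peaks on chromosome 4 at 102242771 to 102247381, with 96.3 and 92.9 RPKM in fenoterol + LPS cells, 80.6 and 70.3 RPKM in fenoterol cells, 100.5 and 94.6 RPKM in LPS cells and 73.2 and 55.2 RPKM in unstimulated cells. The groups with and without LPS did not overlap, and the rise with LPS alone was 0.59 (SE 0.11, adjusted p = 0.00213), a call lost in 3 of 20 other settings, among them without the LPS library of mouse 1. The others, the single peak on chromosome 11 described above and 3 peaks on chromosome 17 at 64949329 to 64951474, had log2 changes of 0.06 and -0.09 that did not pass.

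Falls were smaller and less firm. The largest was that of 2 peaks on chromosome 5 at 139863828 to 139864400, with 7.20 and 6.90 RPKM in LPS cells and 17.5 and 18.8 RPKM in unstimulated cells, a log2 change of -1.0 (SE 0.24, adjusted p = 0.0129). That call was lost without either LPS library. On chromosome 8 at 119804256 to 119806686, 3 peaks all fell. Their level was 16.3 and 19.2 RPKM in fenoterol + LPS cells, 34.0 and 27.6 RPKM in fenoterol cells, 16 and 18 RPKM in LPS cells and 30.8 and 27.6 RPKM in unstimulated cells. All libraries with LPS were below all without it, and the cluster fell by 0.66 on the log2 scale (SE 0.13, adjusted p = 0.00396), a call lost only without the LPS library of mouse 1 among 20 other settings. The 3 peaks on chromosome 2 at 6628385 to 6634919 fell together by 0.63 (adjusted p = 0.0106), although none passed alone. This call was lost in 3 of 20 settings, among them without the LPS library of mouse 2. The other named falls, -0.80 for 2 peaks on chromosome 9 at 50345562 to 50348651 (adjusted p = 0.0431) and -0.67 for 1 peak on chromosome 6 at 87482972 to 87483384 (adjusted p = 0.0396), were lost in 11 of 19 and 10 of 20 settings, among them without each of most single libraries.

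**Figure D5:**
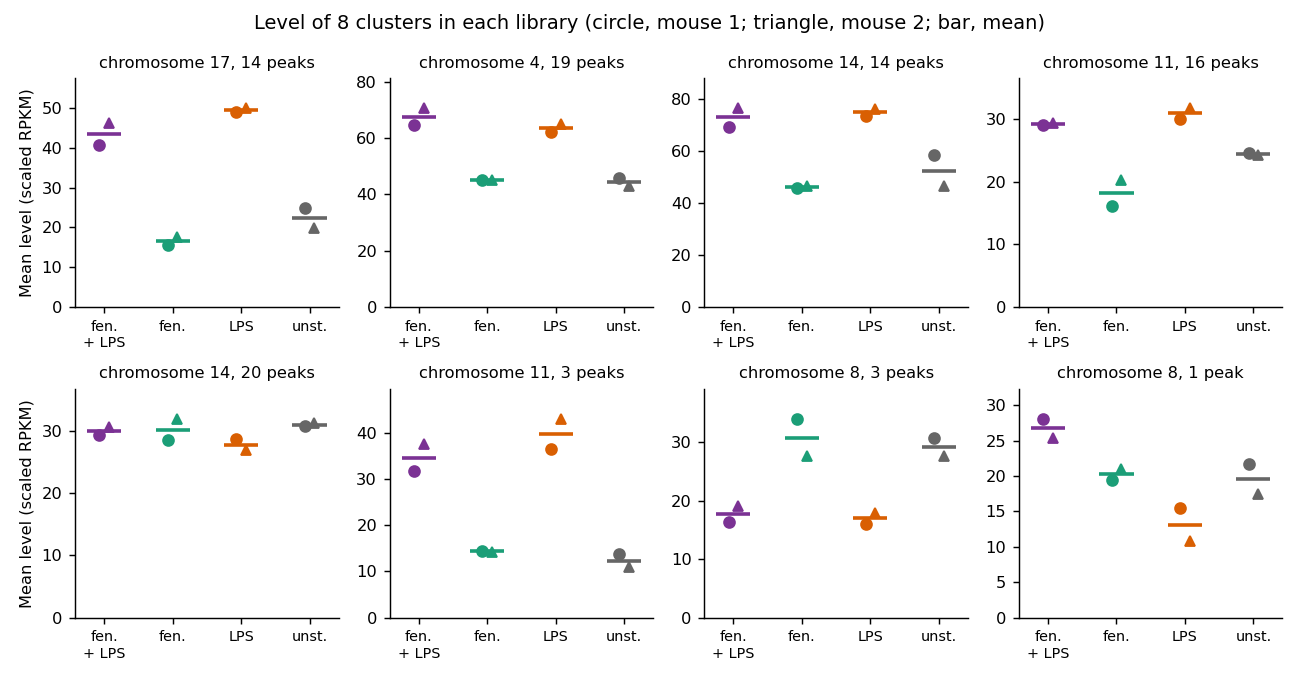
Level of 8 clusters in each library (vertical axis, scaled RPKM, from 0) by group (horizontal axis: fenoterol + LPS, fenoterol, LPS, unstimulated); circles are mouse 1, triangles mouse 2 and bars the group mean. In the 14-peak cluster on chromosome 17 the libraries with LPS lie at 40.7 to 50.0 RPKM and those without it at 15.5 to 25 RPKM, and in the single-peak cluster on chromosome 8 the LPS libraries are the lowest.

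Single clustered peaks gave further examples. On chromosome 6 the peak at 123230262 to 123230748 had 51.8 and 59.5 RPKM in fenoterol + LPS cells, 11.7 and 12.8 RPKM in fenoterol cells, 62.7 and 64.0 RPKM in LPS cells and 9.28 and 11.4 RPKM in unstimulated cells. Its rise of 2.23 (SE 0.16) had the smallest adjusted p of the clustered peaks named here, 1.81e-07. In a cluster of 12 peaks on chromosome 10, whose own log2 change of 0.27 did not pass, the peak at 80395598 to 80395856 rose by 2.24, its unstimulated values resting on 2 and 7 reads. In a cluster of 12 peaks on chromosome 11, whose own log2 change of 0.07 did not pass, the peak at 121612929 to 121613142 rose too. It held 25 and 20 reads in LPS cells and 1 and 1 in unstimulated cells, the value the table also gives to peaks without reads, so no size is given for its rise. Among falls, the peak on chromosome 7 at 132744030 to 132744425 had 12.9 and 19.9 RPKM in fenoterol + LPS cells, 29.6 and 40.6 RPKM in fenoterol cells, 13.7 and 12.4 RPKM in LPS cells and 28.5 and 39.2 RPKM in unstimulated cells. It fell by 1.14 on the log2 scale (adjusted p = 0.00155). Peaks on chromosome 12 at 112913413 to 112913751 and chromosome 4 at 59835015 to 59835272 fell by 1.13 and 1.12.

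Fenoterol before LPS, against LPS alone, is the comparison the series title points to, since it names adrenergic signalling in macrophages. No clustered peak passed by limma, beside a background of 0%. At an unadjusted p under 0.05 there were 130 of 1266 (10.3%), beside 6.65% of all peaks tested. No cluster passed either (background 0%), with 19 of 275 at an unadjusted p under 0.05 (6.91%, beside 4.97% of all regions tested). Cluster changes ran from -0.47 to 0.85, with quartiles of -0.05 and 0.10. In 69 clusters both fenoterol + LPS libraries were above both LPS libraries (25.1%, background 19.8%), and in 49 both were below (17.8%, background 21.9%). The change correlated between the mice at r = 0.34 over the 275 clusters. By limma voom on recovered reads, 12 clustered peaks rose and 1 fell, 0.948% and 0.0790%, beside 0.551% and 0.0509% of all peaks tested, and no cluster passed (background 0.0284%). That test takes nearly all of its spread from other peaks, with a shared prior of 142 degrees of freedom against 4 residual ones.

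The smallest p of a cluster belonged to a single peak on chromosome 8 at 47954703 to 47955256. It had 28.1 and 25.4 RPKM in fenoterol + LPS cells, 19.4 and 21.0 RPKM in fenoterol cells, 15.5 and 10.9 RPKM in LPS cells and 21.7 and 17.5 RPKM in unstimulated cells. The LPS libraries were the lowest and the fenoterol + LPS libraries the highest. Its log2 change was 0.85 (SE 0.18, unadjusted p = 0.000224, adjusted p = 0.421), with an adjusted p of 0.0117 to 1 over the 20 other settings. Next came 3 peaks on chromosome 2 at 117806977 to 117815382, with 22.9 and 20.4 RPKM in fenoterol + LPS cells and 12.8 and 12.9 RPKM in LPS cells (log2 change 0.61, adjusted p = 0.463), and 6 peaks on chromosome 12 at 56558569 to 56582140, with 35.3 and 33.5 RPKM against 27.5 and 26.4 RPKM (0.31, adjusted p = 0.669). In the other direction the 3 smallest unadjusted p-values went with log2 changes of -0.42, -0.23 and -0.24 and adjusted p-values of 0.967 or more.

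Among the clustered peaks with the smallest p for fenoterol + LPS against LPS, some had a level that was high only with both agents. On chromosome 1 at 127346922 to 127347454, the level was 35.4 and 31.7 RPKM in fenoterol + LPS cells, 7.13 and 8.75 RPKM in fenoterol cells, 11.8 and 14.4 RPKM in LPS cells and 7.06 and 9.09 RPKM in unstimulated cells. The log2 change against LPS alone was 1.14 (SE 0.27, limma adjusted p = 0.384, voom adjusted p = 0.000141). On chromosome 2 at 112095037 to 112095652, it was 44.3 and 43.4 RPKM in fenoterol + LPS cells, 24.7 and 21.9 RPKM in fenoterol cells, 24.1 and 24.8 RPKM in LPS cells and 19.5 and 25.2 RPKM in unstimulated cells, a log2 change of 0.75 (SE 0.16, limma adjusted p = 0.31, voom adjusted p = 0.00334). On chromosome 5 at 143674439 to 143674787, it was 43.9 and 33.9 RPKM in fenoterol + LPS cells, 11.8 and 16.3 RPKM in fenoterol cells, 13.1 and 21.9 RPKM in LPS cells and 17.3 and 16.7 RPKM in unstimulated cells (1.02, limma adjusted p = 0.325, voom adjusted p = 0.00679). In each, both fenoterol + LPS libraries were above the other 6. Because these peaks were picked by their p, their height over LPS alone follows in part from the choice. The peaks picked likewise in the other direction had log2 changes of -1.01, -0.60, -0.57 and -0.74 (limma adjusted p = 0.423 to 0.463).

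With fenoterol alone for 15 min, no clustered peak (background 0.00749%) and no cluster (background 0.00568%) passed against unstimulated cells by limma. At an unadjusted p under 0.05 there were 153 of 1266 peaks (12.1%, beside 7.43% of all peaks tested) and 33 of 275 clusters (12%, beside 5.59% of all regions tested). By voom 2 peaks (background 0.0464%) and 0 clusters passed. Both fenoterol libraries were below both unstimulated ones in 78 clusters (28.4%, background 16.8%) and above in 44 (16%, background 13.6%). Leaving out the mouse 2 unstimulated library sets fenoterol against the shallow library alone. Clusters were called in that fit, but the share over all regions is not given here, so these calls are not read as a trait of clusters. The change correlated between the mice at r = 0.18 over the clusters.

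The clusters with the smallest p for a decrease with fenoterol alone included 2 that had risen with LPS. They were the 14-peak cluster on chromosome 17 and the longest cluster on chromosome 11, each with a log2 change of -0.36 (unadjusted p = 0.00108 and 0.000684, adjusted p = 0.805 for both). In the chromosome 11 cluster the peak at 83475775 to 83476337 had 20.2 and 22.1 RPKM in fenoterol cells and 42.8 and 34.0 RPKM in unstimulated cells, a log2 change of -0.75 (adjusted p = 0.156). The third, 3 peaks on chromosome 12 at 106247062 to 106251740, had 46.7 and 50.5 RPKM in fenoterol cells and 64.7 and 57.7 RPKM in unstimulated cells. A peak on chromosome 8 at 114062042 to 114062483 had 21.5 and 21.1 RPKM in fenoterol cells and 35.8 and 36.8 RPKM in unstimulated cells (-0.67, adjusted p = 0.177). In the other direction, 7 peaks on chromosome 2 at 157962045 to 157986087 had 26.2 and 29.8 RPKM in fenoterol cells and 19.2 and 22.4 RPKM in unstimulated cells (0.37, adjusted p = 0.805), and that cluster rose with LPS alone by 0.45 (adjusted p = 0.00633, lost without either LPS library and without a mean trend). The clustered peak with the smallest p of all was on chromosome 4 at 138753976 to 138754342, with 42.3 and 43.8 RPKM in fenoterol cells and 20.5 and 21.2 RPKM in unstimulated cells (0.92, adjusted p = 0.094).

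Whether fenoterol changed the LPS response was tested as an interaction. No clustered peak and no cluster passed by limma or by voom (background 0% for both by limma, and 0.00599% of peaks by voom). At an unadjusted p under 0.05 there were 137 of 1266 peaks (10.8%, beside 6.32% of all peaks tested) and 22 of 275 clusters (8%, beside 4.61% of all regions tested). Higher shares at an unadjusted p among clustered peaks stood beside their higher level, whose part in them was not tested. The smallest p of a cluster was that of 4 peaks on chromosome 9 at 106256054 to 106280896, with 38.2 and 40.1 RPKM in fenoterol + LPS cells, 20.8 and 21.4 RPKM in fenoterol cells, 35.1 and 32.0 RPKM in LPS cells and 28.0 and 24.8 RPKM in unstimulated cells. Its LPS change was 0.78 with fenoterol (adjusted p = 9.45e-05) and 0.31 without (adjusted p = 0.068), a difference of 0.48 (SE 0.15, unadjusted p = 0.00461, adjusted p = 0.991). The median interaction over clusters was 0.07, beside 0.03 over all regions.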

How the data were processed

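Members, lists and tests were chosen with earlier results of these data known. Per the submitters' processing notes, the authors used cutadapt, Bowtie2, MACS2 and HOMER on build mm9, without versions. The sources used here do not give duplicate removal, Tn5 shifting or pooling before peak calling. The authors deposited 1 RPKM value per peak and library, relative to reads in peaks. Multiplied by peak length, 100% of values were whole multiples of 1 read (tolerance 0.01 read), so reads were recovered; peaks without reads appear to have been set to 1 read. Peaks come from 1 list shared by all libraries.

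Values were divided by median-ratio factors (0.934 to 1.03), and log2(value + 4) was tested with limma 3.58.1 in R 4.3.3, with a mean trend, 4 group means over 8 libraries, and Benjamini-Hochberg adjustment over all peaks or all regions; the threshold was 0.05 and the lowest 10% by mean were left out. Rose and fell mean past that threshold, and log2 changes understate low peaks. Clusters were named by size, level and rank of change in each comparison; the 14-peak cluster on chromosome 14 and the single peaks with the largest changes were chosen after their values were seen. The labels give each animal 1 library per group, and this pairs the samples by mouse; differences between mice correlated at 0.0222 to 0.0712 across groups. Spread rests on 2 animals per group, with 4 residual degrees of freedom and a shared prior of 16.4 (peaks) or 13.7 (regions). The fit was run on simulated reads with rises only, a fixed spread and no difference between mice. That run does not bear on falls or on the weight of single libraries. Gene names, gene lists, marker genes, motifs and sequences were not used here, since the annotation at hand is of another build.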

Additional observations from a re-analysis of the deposited data

Results flagged for a closer look

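In 10 named clusters an effect ran one way in both mice in 1 setting and the opposite way in both mice in the other. Some of them were named for their rank in the fenoterol comparisons or the interaction, so the pattern was partly selected. The share of all clusters with such a pattern is not given here. No interaction passed the threshold (limma adjusted p = 0.991 for each of the 10, with unadjusted limma p-values of 0.00461 to 0.149).

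The effect of fenoterol was higher with LPS than without it in 4 clusters. The difference was 0.66 on the log2 scale for the single peak on chromosome 2 at 52800676 to 52801084, and 0.53 for the cluster on chromosome 9 at 50345562 to 50348651. It was 0.35 for the cluster on chromosome 12 at 56558569 to 56582140, and 0.48 for that on chromosome 9 at 106256054 to 106280896.

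The effect of fenoterol was lower with LPS than without it in 5 clusters. The difference was -0.27 on chromosome 4 at 102242771 to 102247381, -0.39 on chromosome 6 at 115939076 to 115939595, and -0.35 on chromosome 11 at 43175402 to 43183018. It was -0.40 on chromosome 3 at 8968646 to 8984273, where fenoterol + LPS cells had 31.1 and 30.5 RPKM, fenoterol cells 52.2 and 49.4 RPKM, LPS cells 33.6 and 30.8 RPKM and unstimulated cells 36.9 and 41.5 RPKM. On chromosome 8 at 126771563 to 126775101 it was -0.79, with 11.1 and 13.3 RPKM in fenoterol + LPS cells, 32.6 and 24.5 RPKM in fenoterol cells, 16 and 14.8 RPKM in LPS cells and 18.4 and 18.2 RPKM in unstimulated cells.

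For the single peak on chromosome 8 at 47954703 to 47955256, the effect of LPS was 0.81 higher with fenoterol than without it. Fenoterol + LPS cells were above fenoterol cells in both mice there, by 0.45 and 0.23, while LPS cells were below unstimulated cells, with log2 differences of -0.40 and -0.53.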

How the results depend on the processing

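For LPS against unstimulated cells, 294 clustered peaks and 71 clusters were called. Without a mean trend there were 159 and 25, and with only the groups compared 37 clusters. With the mouse as a replicate block, 331 peaks and 101 clusters were called, falls going to 45 clusters, and the block changed no other call of a count by over 1.5 times. Leaving out 1 library gave 131 to 393 peaks and 24 to 110 clusters. For fenoterol + LPS against fenoterol, the 369 peaks and 89 clusters became 244 and 46 without a trend, and 191 to 475 and 46 to 119 with 1 library left out. For fenoterol against unstimulated cells, quantile normalization called 5 peaks and 5 clusters, voom 2 peaks, voom with the block 1 peak, and leaving out 1 library 0 to 103 peaks and 0 to 34 clusters. For fenoterol + LPS against LPS, 13 peaks and 4 clusters were called with only the groups compared, 13 peaks by voom, 18 peaks and 2 clusters by voom with the block, 1 cluster after quantile normalization, and 0 to 1 clusters with 1 library left out. The interaction gave 0 to 12 peaks and 0 to 6 clusters with 1 library left out.

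The rule set the size of the list. With at least 7 neighbours there were 8816 peaks in 1484 clusters, with at least 15 neighbours 4 peaks in 1, and with 10 neighbours within 15000 bp 24 peaks in 8. Under these 3 rules, called peaks came to 1567, 0 and 6 for LPS against unstimulated cells and 2013, 2 and 7 for fenoterol + LPS against fenoterol, and called clusters to 322, 0 and 2 and to 375, 0 and 2. With 7 neighbours 1 peak was called for fenoterol against unstimulated cells. The share of signal was 12.9%, 0.00493% and 0.0296%. Its lowest value with LPS and highest without were 13.0% and 12.9% under the first, 0.00489% and 0.00543% under the second, and 0.0294% and 0.0297% under the third. Median log2 changes were 0.0576 and -0.0898 (15 neighbours, 15000 bp) for LPS, 0.0761 and -0.146 for fenoterol, 0.0503 and -0.113 for fenoterol + LPS against LPS, and -0.0482 and -0.145 for fenoterol + LPS against fenoterol, where 7 neighbours gave 0.0001002. As deposited, medians were 0.0138 for LPS, 0.00127 for fenoterol and 0.00723 for fenoterol + LPS against fenoterol; after quantile normalization, 0.00171 for LPS and 0.0034 for fenoterol + LPS against fenoterol. With 1 library left out they ran from -0.0165 to 0.0186, -0.062 to -0.0213, 0.00145 to 0.0199 for fenoterol + LPS against LPS, and 0.0174 to 0.0449 for fenoterol + LPS against fenoterol. Neighbour likeness at 20 RPKM or more was 0.337 in clusters and 0.223 outside.

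Some changes turned sign, none of which had passed the threshold. The single-peak cluster on chromosome 11 with the highest level came to -0.0978 for LPS without the mouse 2 unstimulated library, and so did its peak (range over left-out libraries -0.0978 to 0.223). The 3-peak cluster on chromosome 17 came to 0.00727 after quantile normalization and 0.0384 without the mouse 1 unstimulated library (range -0.212 to 0.0384). For fenoterol alone, the chromosome 11 peak at 83409251 to 83409631 ran from -0.182, without the mouse 1 unstimulated library, to 0.867, without that of mouse 2. The chromosome 17 peak at 35359316 to 35359527 ran from -0.2998 to 0.435 with 1 library left out (-0.202 for the second fenoterol library), and gave -0.137 by voom and -0.0656 by voom with the block. The causes were not tested. The planned edgeR test was not run, because the deposited unit is RPKM; voom, chosen after seeing the data, stands in its place. Depth limits single peaks most in the mouse 1 unstimulated library.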
